A study of Xenopus tropicalis with 11 samples.

Results

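The regions described here are the 480 Smad2/3 peaks of the early gastrula of the frog Xenopus tropicalis, set against the Foxh1 peaks found earlier, in the blastula. They are every peak of the deposited Smad2/3 list, out of 139160 peaks in the 6 lists of the series. Each was sorted by whether it overlapped, by at least 1 base, a Foxh1 peak of stage 9 (29935 peaks) or of stage 8 (28611 peaks), which gives the 4 classes both, stage 9 only, stage 8 only and neither. The question is how many Smad2/3 regions had Foxh1 beforehand, and how well the strength of a blastula Foxh1 peak picks out those that have Smad2/3 later.

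The study mapped factors on chromatin by ChIP-seq, which sequences DNA fragments pulled down with an antibody, in whole embryos of the Nigerian strain. Foxh1 was immunoprecipitated at stages 9 and 8 with a custom antibody, and each Foxh1 list stands for 2 replicates pooled. Tle was mapped at stage 8 and Foxa at stage 10.25, with 1 library each. The Smad2/3 list and a gastrula Foxh1 list were recomputed from an earlier series, and their early gastrula stage, just after that of the Foxa sample, comes from the names of the deposited lists. The labels do not give the strain and antibody of those gastrula samples, and they name no mutation or treatment in any group. With 1 list per factor and stage there is no spread between replicates to set a difference against, so all values below are descriptions without a test. The 95% intervals are Wilson intervals for shares, they treat peaks as independent, and they cover the counting of peaks only. The number of reads behind each list is unknown. In whole embryos, binding in more cells and stronger binding per cell cannot be told apart, and Foxh1 and Smad2/3 peaks at the same place need not come from the same cells.

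Smad2 and Smad3 are the intracellular effectors of Nodal signalling, which induces mesoderm and endoderm in the vertebrate embryo. They bind DNA weakly on their own and are brought to many of their targets by partner proteins. Foxh1 is such a partner, a forkhead transcription factor that the frog egg supplies maternally, so it is present before zygotic transcription and before Nodal signalling reaches its height. Foxa proteins are forkhead factors of the endoderm and the organizer, and Tle is a Groucho-family co-repressor that reaches DNA through other factors.

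Of the 480 Smad2/3 peaks, 354 overlapped a Foxh1 peak of stage 9 (73.8%, interval 69.6 to 77.5%) and 223 overlapped one of stage 8 (46.5%, 42.0 to 50.9%). The stage 8 regions were almost wholly contained in the stage 9 regions. Foxh1 was at 221 Smad2/3 peaks at both stages (46.0%, 41.6 to 50.5%), at 133 at stage 9 only (27.7%, 23.9 to 31.9%) and at 2 at stage 8 only (0.417%, 0.114 to 1.51%). At 124 Smad2/3 peaks neither blastula list had a peak (25.8%, 22.1 to 29.9%). Seen from Foxh1, 1.18% of all stage 9 peaks and 0.783% of all stage 8 peaks overlapped a Smad2/3 peak. With 480 Smad2/3 peaks against lists of 29935 and 28611 Foxh1 peaks, these shares could only be low.

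Another gastrula factor, Foxa, gives a background for these shares. Its list is not separate from the Smad2/3 list, since nearly all Smad2/3 peaks also overlapped a Foxa peak. Over the whole Foxa list of 40925 peaks, 27.2% had Foxh1 at stage 9, 14.1% at stage 8, 13.2% at both stages and 72.0% at neither. The Smad2/3 shares for stage 9, stage 8 and both stages were above those over all Foxa peaks. Foxh1 at stage 8 only was rare over all Foxa peaks too, at 0.821%. The Smad2/3 list is far shorter, and the picture changed when only the 480 Foxa peaks of highest score were taken. Of these, 90.8% had stage 9 Foxh1 (87.9 to 93.1%), 51.7% had stage 8 Foxh1 (47.2 to 56.1%) and 9.17% had neither (6.90 to 12.1%). Stage 9 Foxh1 was thus more frequent at the highest Foxa peaks than over the whole Smad2/3 list, and for stage 8 the intervals overlapped. The top of one list is here set against the whole of the other. Of the 50 Smad2/3 peaks of highest fold enrichment 41 had stage 9 Foxh1, and of the 50 of highest −log10 p 44 (both values are described below).

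The Smad2/3 and Foxh1 summits, the points of highest signal within each peak, lay close together wherever the peaks overlapped. Overlap itself keeps summits close, so part of this follows from how the pairs were chosen. The median distance was 30 bases to the stage 9 summit (quartiles 12 to 58, n = 354) and 30 bases to the stage 8 summit (13 to 58, n = 223). The stage 9 summit was within 100 bases at 312 of 354 overlapping peaks (88.1%), and the stage 8 summit at 198 of 223 (88.8%). Over all 480 Smad2/3 peaks, overlapping or not, the shares within 100 bases were 65.0% for stage 9 and 41.2% for stage 8. For the 480 Foxa peaks of highest score, measured from their middle, they were 70.6% and 36.5%. Few classifications rested on the edge of a peak: the least overlap was 11 bases at stage 9 and 28 bases at stage 8, and the Smad2/3 summit itself lay inside the Foxh1 peak in 352 of 354 and in 222 of 223 cases. The narrowest gaps that kept a Smad2/3 peak out were 102 bases at stage 9 and 76 bases at stage 8. In the class with Foxh1 at both stages, the stage 9 and stage 8 summits were a median of 11 bases apart (quartiles 4 to 23), and 202 of the 221 pairs were within 50 bases. That distance was not taken over all regions with Foxh1 at both stages. Stage 9 was nearer to the Smad2/3 summit at 112 peaks and stage 8 at 105, with 4 ties, so about equally often.

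Where no blastula Foxh1 peak overlapped, the nearest one was kilobases away. In the class with neither, the nearest stage 9 summit was a median of 14104 bases off and the nearest stage 8 summit 19657.5 bases off. Only 5 of these 124 peaks had a stage 9 summit within 1 kb, 37 within 5 kb (29.8%) and 46 within 10 kb (37.1%). Other gastrula regions without Foxh1 lay no further off: among Foxa peaks with neither stage, 47.7% had a stage 9 summit within 10 kb of their middle, and the median was 10612 bases. Smad2/3 peaks with stage 9 Foxh1 only were a median of 10775 bases from the nearest stage 8 summit, and 8 of the 133 had one within 1 kb. Few of the peaks that lacked a stage 8 overlap in that class thus had a stage 8 summit close by.

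**Figure D1:**
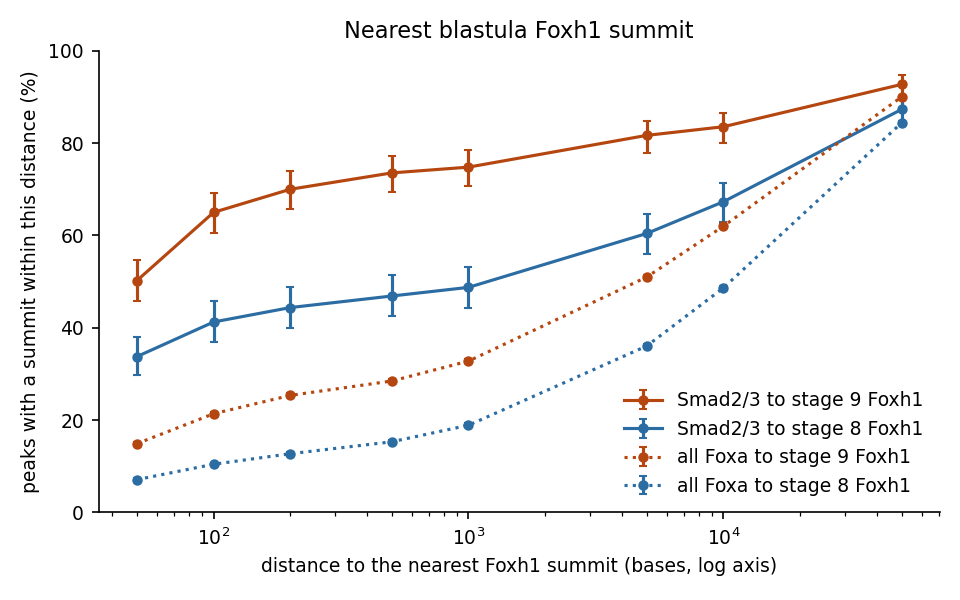
Share of peaks (vertical axis, percent) with a blastula Foxh1 summit within a given distance (horizontal axis, bases, log scale), for the 480 Smad2/3 peaks (solid) and all 40925 Foxa peaks (dotted), to stage 9 and stage 8 Foxh1. Bars are Wilson 95% intervals over peaks. The Smad2/3 curves reach 65.0% at stage 9 and 41.2% at stage 8 by 100 bases. They climb slowly to 74.8% and 48.8% by 1000 bases, and stand at 83.5% and 67.3% by 10000 bases. The 480 Foxa peaks of highest score are not drawn apart.

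Smad2/3 peaks with and without blastula Foxh1 had much the same fold enrichment. This value is the seventh column of the list, taken from the list's layout to be the authors' fold enrichment of the peak, since no header names the columns. Its median was 9.47 where Foxh1 was present at both stages (quartiles 7.84 to 12.3, range 4.99 to 26.1), 9.03 at stage 9 only (8.05 to 11.2, range 5.88 to 35.4) and 9.27 at neither (8.09 to 10.9, range 2.62 to 28.1). The 2 peaks with Foxh1 at stage 8 only had 27.9 and 7.64. All classes overlapped over almost their whole range. As a rank from 1, the highest, to 480, the median was 229 for both stages, 261 for stage 9 only and 243 for neither. The area under the curve, here the probability that a Smad2/3 peak with Foxh1 at either stage has a higher fold than one with neither, was 0.514 (0.455 to 0.573), and 0.5 would mean no ordering. With an overlap of 50% of both peaks required it was 0.587 (0.536 to 0.639), and with the upper 50% of each Foxh1 list 0.496. For both stages over stage 9 only it was 0.527 (0.465 to 0.589). This second area was 0.583 (0.518 to 0.649) with the upper 50% of each Foxh1 list and 0.571 (0.499 to 0.642) with the 50% overlap. Under the other settings for fold it lay between 0.519 and 0.552.

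The deposited −log10 p of the same peaks, the eighth column by the same reading, did order the classes. Its median was 35.5 for both stages, 31.8 for stage 9 only and 26.3 for neither, and the area of either stage over neither was 0.634 (0.580 to 0.688). For both stages over stage 9 only the area was 0.577 (0.517 to 0.638). Peaks with blastula Foxh1 were also wider, with median widths of 336 bases (both), 318 bases (stage 9 only) and 269 bases (neither) and an area of 0.666 for width. Splitting the list into 3 sets of 160 peaks by −log10 p gave stage 9 Foxh1 at 83.8%, 76.9% and 60.6% of the peaks, from the highest set to the lowest, and stage 8 Foxh1 at 58.8%, 47.5% and 33.1%. Split by fold instead, the stage 9 shares were 76.2%, 70.6% and 74.4%, with no steady order. At the very top of the fold ranking the counts are small. Of the 20 highest Smad2/3 peaks, 18 had stage 9 Foxh1 (interval 69.9 to 97.2%) and 16 had stage 8 Foxh1 (58.4 to 91.9%). Neither was found at 1 (0.888 to 23.6%). Among the 50 highest these counts were 41 (69.2 to 90.2%), 30 (46.2 to 72.4%) and 8 (8.34 to 28.5%). Over all 480 peaks the shares were 73.8%, 46.5% and 25.8%, each inside the interval for the 50. For the 20, only the stage 9 interval held the share of the whole list.

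**Figure D2:**
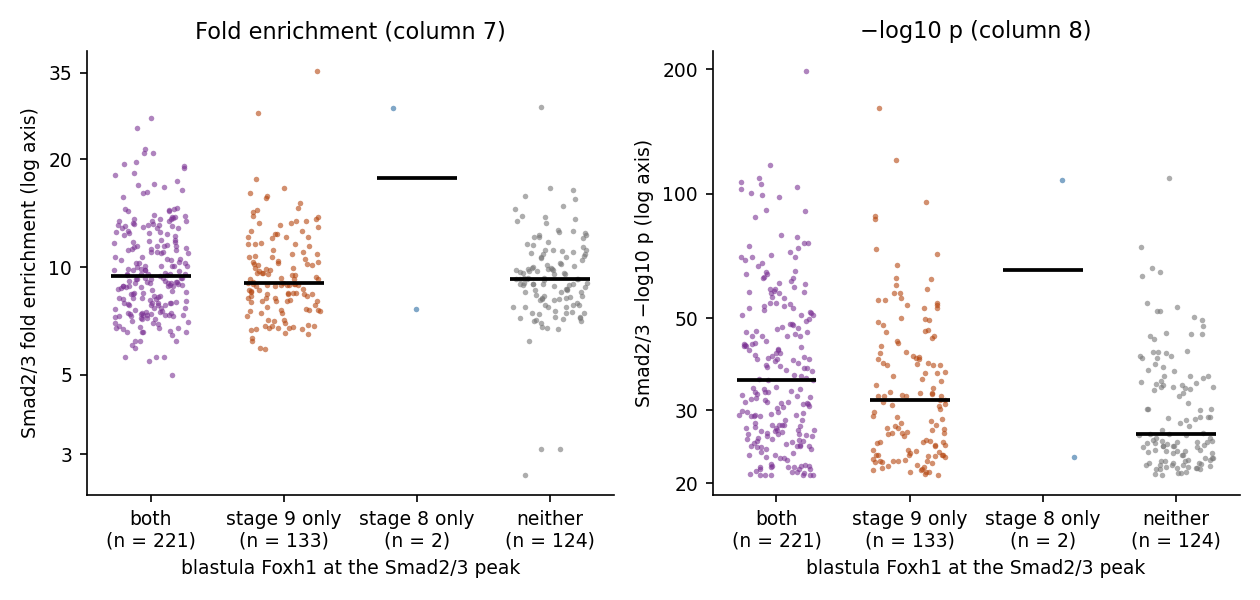
Fold enrichment (left) and −log10 p (right) of each Smad2/3 peak (vertical axes, log scale) by the blastula Foxh1 found there; points are peaks and bars are medians. The medians of fold lie between 9.03 and 9.47 in the 3 large classes, whereas those of −log10 p are 35.5 for both, 31.8 for stage 9 only and 26.3 for neither.

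The highest Smad2/3 peaks came from every class. The highest of all, with a fold of 35.4, lay on scaffold 7 from 123170862 to 123171453 and had Foxh1 at stage 9 only. Its Foxh1 summit was 3 bases away but its Foxh1 fold was 11.6, at the 20.6th percentile of the stage 9 list, and the nearest stage 8 summit was 7949 bases away. The second, with 28.1, lay on scaffold 2 from 46667846 to 46668147 and its nearest blastula Foxh1 summit, at either stage, was 56688 bases away. A gastrula Foxh1 summit lay 14 bases from it and the middle of a Foxa peak 39 bases from it. The third, with 27.9, lay on scaffold 2 from 141561277 to 141561519 and was 1 of the 2 peaks with stage 8 Foxh1 only (Foxh1 fold 14.2). The fourth, with 27.0, lay on scaffold 8 from 82252401 to 82252744, with stage 9 Foxh1 (fold 20.8) 1 base from the Smad2/3 summit.

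The next peaks in the fold ranking had Foxh1 at both stages. The fifth lay on scaffold 1 from 202940577 to 202941194, with a Smad2/3 fold of 26.1 and the highest −log10 p of the list, 198. Its Foxh1 fold was 34.0 at stage 9 and 36.5 at stage 8. The sixth, on scaffold 53 from 75534 to 76192, had a Smad2/3 fold of 24.5, with Foxh1 folds of 33.8 at stage 9 and 44.0 at stage 8. The seventh, on scaffold 1 from 55061675 to 55062301, had 21.4, with Foxh1 folds of 31.5 at stage 9 and 26.3 at stage 8. All 3 also had gastrula Foxh1, Foxa and Tle peaks, and their blastula summits lay within 64 bases of the Smad2/3 summit.

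Further down, the third-ranked peak of the stage 9 only class lay on scaffold 3 from 43289838 to 43290116, with a Smad2/3 fold of 17.6 and a stage 9 Foxh1 fold of 37.3. The other peak with stage 8 Foxh1 only lay on scaffold 1 from 113392816 to 113393131. It had a Smad2/3 fold of 7.64 and a stage 8 fold of 14.3, and a stage 9 summit lay 1592 bases off. In the class with neither, the second and the third peak lay on scaffold 8c from 3644481 to 3644715, with 16.7, and on scaffold 9 from 4657593 to 4657988, with 16.4. Both had a Foxa peak and no gastrula Foxh1, and their nearest stage 9 summits were 25958 and 25900 bases away. Coordinates are those of the deposited lists. The sources used here do not give their genome build, and neighbouring genes and sequences were not used.

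At Smad2/3 regions with Foxh1 at both stages, the Foxh1 peaks were strong ones in their own lists, above all at stage 9. In the class both, the stage 9 Foxh1 fold had a median of 31.4, at the 91.8th percentile of the stage 9 list, and 213 of the 221 peaks were in the upper 50% of that list and 125 in the upper 10%. The stage 8 fold at the same regions had a median of 24.6, at the 81.7th percentile of the stage 8 list, with 175 in the upper 50% and 73 in the upper 10%. Over all 17569 regions with a Foxh1 peak at both stages, the median folds were 18.5 at stage 9 and 18.7 at stage 8. Where a Smad2/3 peak had Foxh1 at stage 9 only, the Foxh1 fold was lower than in the class both. Its median was 17.1, at the 57.2nd percentile, with 80 of 133 in the upper 50% and 16 in the upper 10%. Stage 9 peaks without Smad2/3 had the same order, with median folds of 18.8 with a stage 8 peak and 13.5 without one. Among stage 9 peaks without stage 8, the area of fold, with Smad2/3 over without, was 0.684 (0.632 to 0.736). These values are for the 28611 highest stage 9 peaks. The percentile was higher at stage 9 in 147 of the 221 pairs (66.5%) and higher at stage 8 in 74. There were 22 regions in the upper 10% at stage 9 but the lower 50% at stage 8, and 2 of the opposite kind. The same counts of percentiles were not taken over all 17569 regions. The log2 ratio of the stage 9 fold to the stage 8 fold was, and it is described below. Its median was 0.27 in regions with Smad2/3 and −0.04 in those without.

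**Figure D3:**
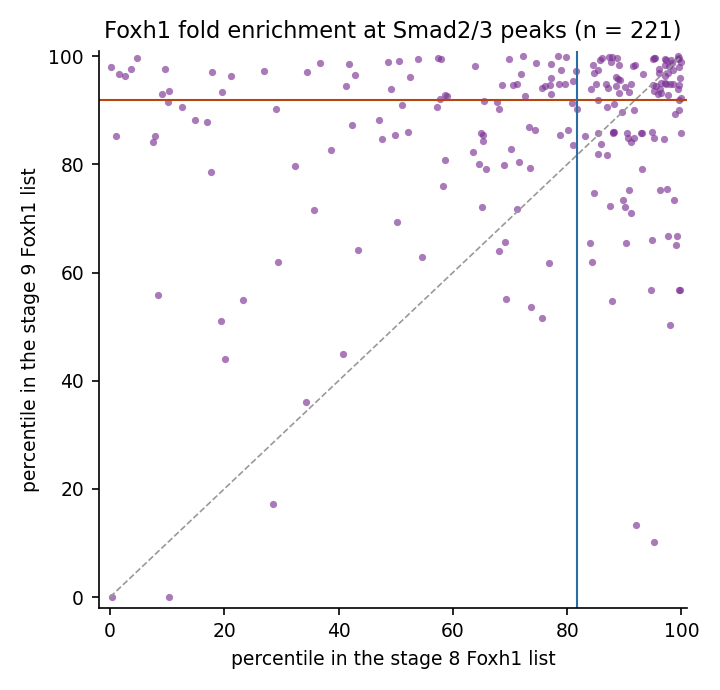
Percentile of the Foxh1 fold in the stage 9 list (vertical axis) and in the stage 8 list (horizontal axis) for the 221 Smad2/3 peaks with Foxh1 at both stages; each point is a Smad2/3 peak, the coloured lines are the medians (91.8 at stage 9, 81.7 at stage 8) and the dashed line marks equal percentiles. Of the points, 147 lie above the dashed line, and the upper left corner, strong at stage 9 and weak at stage 8, is filled more than the lower right.

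The strength of the Foxh1 peak and that of the Smad2/3 peak were weakly related. Across peaks, which share their libraries and are not replicates, Spearman's rho between the Smad2/3 fold and the Foxh1 fold was 0.0203 at stage 9 (n = 354) and 0.135 at stage 8 (n = 223). Between the −log10 p values it was 0.185 at stage 9 and 0.159 at stage 8. The stage 9 and stage 8 folds at the 221 shared regions were themselves weakly related, with a rho of 0.139.

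Taken as a ranking, stage 9 Foxh1 reached more Smad2/3 regions than stage 8 Foxh1 at every list length tried. Among the 1000 peaks of highest fold, 63 of stage 9 had Smad2/3 (6.30%, 4.95 to 7.98%) and 36 of stage 8 (3.60%, 2.61 to 4.94%), a ratio of 1.75. Among 5000 peaks the shares were 3.74% at stage 9 and 2.20% at stage 8, and these peaks held 188 and 110 of the 480 Smad2/3 peaks. With the stage 9 list shortened to the 28611 peaks of the stage 8 list, 1.21% at stage 9 and 0.783% at stage 8 had Smad2/3, and the Smad2/3 peaks reached were 347 (72.3%) and 223 (46.5%). The ratio lay between 1.54 and 1.88 over the 7 lengths from 500 to 28611. The value of 1.54 was that at 28611, the full length of the stage 8 list. The ratios at shorter lengths therefore include the greater overlap of the stage 9 list as a whole. The whole stage 9 list reached 354, so shortening it to the length of the stage 8 list changed the count little.

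**Figure D4:**
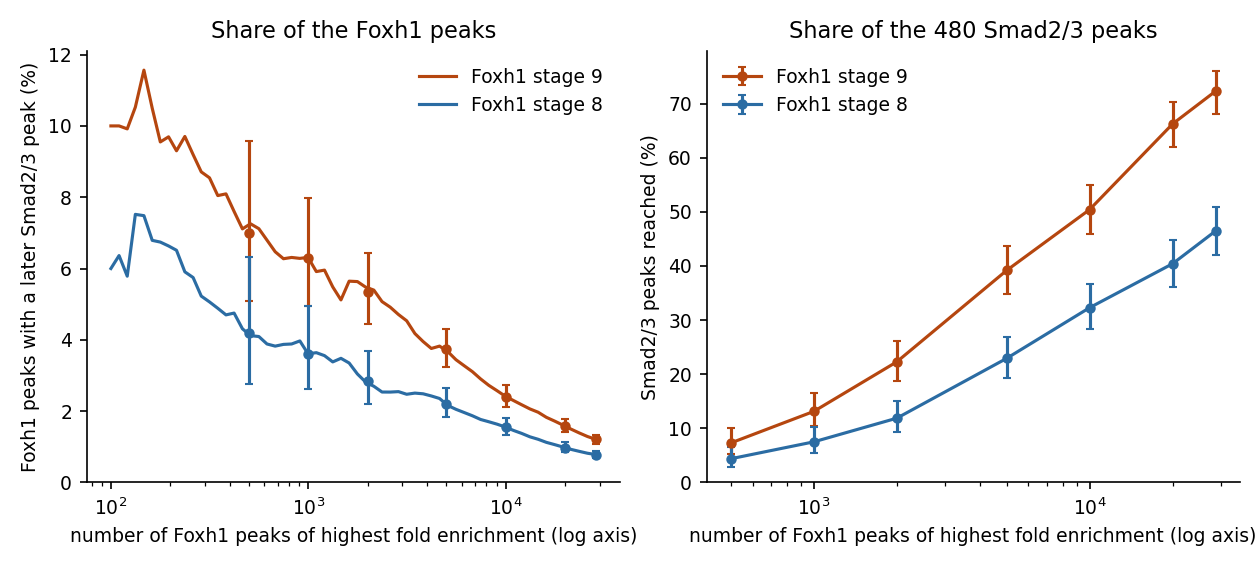
Left, share of the Foxh1 peaks of highest fold that overlap a Smad2/3 peak (vertical axis, percent); right, share of the 480 Smad2/3 peaks reached; both against the number of Foxh1 peaks taken (horizontal axis, log scale). Bars are Wilson 95% intervals over peaks; stage 9 lies above stage 8 throughout, with 6.30% at stage 9 and 3.60% at stage 8 for 1000 peaks.

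Within each list, Smad2/3 was concentrated towards the highest folds. The area under the curve of Foxh1 fold, peaks with Smad2/3 over peaks without, was 0.744 at stage 9 (0.714 to 0.774) and 0.711 at stage 8 (0.673 to 0.750), over 28611 peaks each. Within shorter lists the order of the stages was not the same. It was 0.604 at stage 9 and 0.596 at stage 8 over the 5000 highest peaks, 0.558 and 0.619 over 2000, 0.558 and 0.592 over 1000, and 0.611 and 0.622 over 500, with intervals that overlapped at each of these lengths. At stage 9 the median Foxh1 fold was 26.6 with Smad2/3 and 16.0 without; at stage 8 it was 24.4 with Smad2/3 and 16.6 without. The highest 10% of the stage 9 peaks held 135 peaks with Smad2/3 (4.72%) and the lowest 10% held 12 (0.419%). At stage 8 the highest 10% held 73 (2.55%) and the lowest 10% held 12. A higher share at the highest folds was not particular to Smad2/3. In the highest and lowest 10% of the stage 9 peaks, gastrula Foxh1 was at 19.2% and 0.175%, Foxa at 59.2% and 30.1%, and Tle at 71.3% and 27.5%. For stage 8 too, each of these factors was more frequent in the highest 10% than in the lowest. At both stages most of the highest 10% of Foxh1 peaks had no Smad2/3 peak, which 480 Smad2/3 peaks against 2862 Foxh1 peaks fix in advance.

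The stage difference remained when both stages were compared over the same places. Among 17569 regions with a Foxh1 peak at both stages, 222 had Smad2/3. Ranked by their stage 9 fold the area was 0.796 (0.761 to 0.831), and ranked by their stage 8 fold it was 0.656 (0.617 to 0.696). The 1000 highest held 56 Smad2/3 regions by stage 9 fold and 36 by stage 8 fold. Adding the ranks of both stages gave 0.771, below stage 9 alone. Peak width differed between the stages in the same direction. Ranked by width, the area was 0.886 at stage 9 (0.857 to 0.914) and 0.680 at stage 8 (0.641 to 0.719). Median widths with and without Smad2/3 were 671.5 and 314 bases at stage 9, and 464 and 327 bases at stage 8. The part of width in the stage difference of fold was not tested. The log2 ratio of the stage 9 fold to the stage 8 fold had a median of 0.27 in regions with Smad2/3 and −0.04 in those without, and it was above 0 in 145 of the 222. The authors' folds were set within each list, so the ratio orders regions and is no measure of a change in binding.

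Stage 9 Foxh1 peaks carried Smad2/3 both with and without a stage 8 counterpart, whereas stage 8 peaks without a stage 9 counterpart hardly did. Of the 28611 highest stage 9 peaks, 126 of 11558 without stage 8 had Smad2/3 (1.09%) and 220 of 17053 with stage 8 (1.29%). Among the 1000 highest of each kind it was 37 without stage 8 (3.70%, 2.70 to 5.06%) and 56 with stage 8 (5.60%, 4.34 to 7.20%). Of the stage 8 peaks, 2 of 10952 without stage 9 had Smad2/3 (0.0183%) and 222 of 17659 with stage 9 (1.26%). Among the 1000 highest stage 8 peaks without stage 9 none had Smad2/3, and the interval for that share ends at 0.383%. The direction was not particular to Smad2/3. Of the 5755 Foxa peaks with stage 8 Foxh1, 336 had it at stage 8 only and 5419 at both stages. For the 223 Smad2/3 peaks with stage 8 Foxh1 the counts were 2 and 221, a smaller part at stage 8 only. The share with Foxa was not taken over the stage 8 peaks with and without stage 9.

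Peak width moved with these rankings. Foxh1 peaks with Smad2/3 were wider, with a median of 579.5 bases against 292 bases for those without at stage 9, and 462 bases against 306 bases at stage 8. The area of width was 0.840 at stage 9 and 0.714 at stage 8 by overlap, and 0.829 at stage 9 and 0.688 at stage 8 with summits within 100 bases as the criterion. Within 3 sets of equal size by width, narrowest to widest, the area of Foxh1 fold was 0.548, 0.641 and 0.645 at stage 9 and 0.631, 0.604 and 0.696 at stage 8. The widest set held 284 of the 346 stage 9 peaks with Smad2/3, and the narrowest held 10. The part of width in the area over the whole list was not tested beyond these values.

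The highest Foxh1 peaks were found both with and without Smad2/3. At stage 9 the highest peak, on scaffold 5 from 118190466 to 118191171 with a Foxh1 fold of 51.0, had a Smad2/3 peak of fold 14.5, its summit 5 bases away. The second, on scaffold 3 from 3425516 to 3426103 with 50.7, had gastrula Foxh1 and Tle but neither Smad2/3 nor Foxa. The third, on scaffold 100 from 176362 to 177017 with 50.5, had a Smad2/3 peak of rank 375 and fold 7.68. The fourth, on scaffold 27 from 430299 to 430832 with 50.5, and the fifth, on scaffold 1340 from 6705 to 7309 with 50.2, had gastrula Foxh1, Foxa and Tle but no Smad2/3. The next with Smad2/3 was the ninth, on scaffold 9 from 21272306 to 21272635, with a Foxh1 fold of 49.9 and a Smad2/3 fold of 10.1.

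At stage 8 the highest Foxh1 peak, on scaffold 2 from 106251251 to 106251675 with a fold of 53.6, had Tle but neither Smad2/3, Foxa nor gastrula Foxh1. The second, on scaffold 7 from 1854579 to 1855041 with 52.3, had a Smad2/3 peak of fold 18.3, rank 14 in its list. The third, on scaffold 4 from 3595770 to 3596164 with 52.3, had gastrula Foxh1, Foxa and Tle, and its nearest Smad2/3 summit was 11266 bases away. The fourth, on scaffold 10 from 15499189 to 15499627 with 51.7, had the same 3 factors and no Smad2/3. The next stage 8 peaks with Smad2/3 came at ranks 30 and 31, on scaffold 2 from 83148124 to 83148846 (Foxh1 fold 48.0, Smad2/3 fold 10.1) and on scaffold 5 from 98435611 to 98436330 (47.7 and 9.56). All 12 of these Foxh1 peaks were found at the other blastula stage as well. Over the whole lists this held for 17646 of 29935 stage 9 peaks and 17659 of 28611 stage 8 peaks. The 12 were chosen by fold, and in both lists peaks with the other stage had the higher median fold, with or without Smad2/3.

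The classes differed in the share with gastrula Foxh1 and with Tle. The gastrula Foxh1 list has 1290 peaks, far fewer than either blastula Foxh1 list, and the Tle list has 37919. Absence from so short a gastrula list does not show that a region had lost Foxh1. Blastula Foxh1 fold also differed between the classes both and stage 9 only, and its part in the shares below was not tested. A gastrula Foxh1 peak was at 196 of 221 Smad2/3 peaks of the class both (88.7%, 83.8 to 92.2%), at 50 of 133 with stage 9 only (37.6%, 29.8 to 46.1%) and at 14 of 124 with neither (11.3%, 6.85 to 18.1%). Tle, mapped at stage 8, was at 173 of 221 (78.3%, 72.4 to 83.2%), at 18 of 133 (13.5%, 8.74 to 20.4%) and at 3 of 124 (2.42%, 0.826 to 6.87%) in the same order. Foxa was at nearly all: 221 of 221 for both, 130 of 133 for stage 9 only (97.7%) and 112 of 124 for neither (90.3%). Over all stage 9 Foxh1 peaks, 61.4% of those with stage 8 and 15.3% of those without had Tle, so the split in Tle follows the stage 8 Foxh1 list generally. Gastrula Foxh1 was also less frequent without stage 8 over those same peaks, at 2.10% against 5.36% with stage 8. Foxa went the other way, at 45.2% without stage 8 and 30.2% with it.

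**Figure D5:**
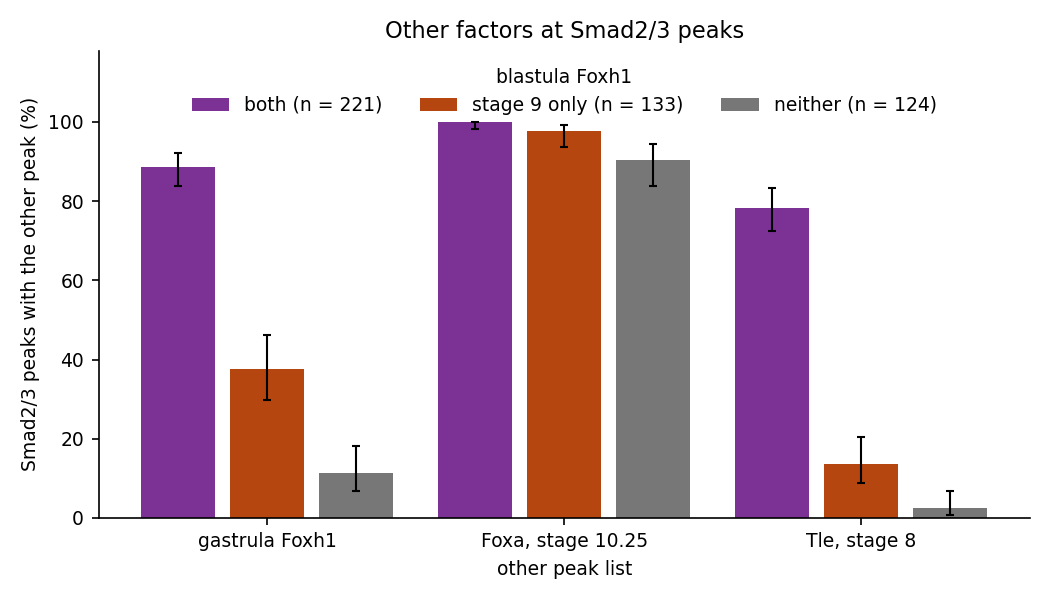
Share of Smad2/3 peaks (vertical axis, percent) that overlap a gastrula Foxh1, Foxa or Tle peak, by the blastula Foxh1 found there; bars start at 0 and error bars are Wilson 95% intervals over peaks. The 2 peaks with stage 8 only are not drawn. Gastrula Foxh1 and Tle step down across the classes, with 88.7% and 78.3% for both and 11.3% and 2.42% for neither, while Foxa is at 90.3% or more in each class.

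Regions that also had gastrula Foxh1 had the higher blastula Foxh1 fold. In the class both, the median stage 9 percentile was 92.9 where gastrula Foxh1 was present (n = 196) and 83.6 where it was not (n = 25), and the stage 8 percentiles were 84.9 and 58.6. In the class stage 9 only they were 66.5 with gastrula Foxh1 (n = 50) and 51.4 without (n = 83). Smad2/3 fold also had the higher median with gastrula Foxh1 in each class: 9.56 against 8.42 for both, 10.2 against 8.67 for stage 9 only, and 9.96 against 9.03 for neither, where n is 14 and 110.

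Which strong blastula Foxh1 peaks had Smad2/3 differed by the other lists. Of the 1000 highest stage 9 Foxh1 peaks, 63 of 627 with Foxa had Smad2/3 (10.0%, 7.93 to 12.6%) and 0 of 373 without Foxa, where the interval ends at 1.02%. With gastrula Foxh1 it was 59 of 264 (22.3%), and without it 4 of 736 (0.543%). Tle made less difference, with 45 of 773 (5.82%) where it was present and 18 of 227 (7.93%) where it was not. Stage 8 gave the same picture for Foxa, with 36 of 361 (9.97%) against 0 of 639, and for gastrula Foxh1, with 34 of 154 (22.1%) against 2 of 846 (0.236%). The split by Foxa is the reverse view of the Foxa overlap of nearly all Smad2/3 peaks. Likewise, the split by gastrula Foxh1 is the reverse view of its overlap with Smad2/3 peaks, 88.7% for both and 37.6% for stage 9 only. The gastrula Foxh1 and Smad2/3 lists also share their stage and the earlier series they come from.

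The 124 Smad2/3 peaks without blastula Foxh1 were mostly Foxa regions, like those of the other classes. Their Foxa share was the lowest, at 90.3% against 97.7% for stage 9 only and 100% for both. Besides the 112 with Foxa, 7 had gastrula Foxh1 and no Foxa, and 5 overlapped none of the 5 other lists. In all 14 with gastrula Foxh1 its summit lay within 100 bases of the Smad2/3 summit, and 5 of these 14 were on scaffolds with no blastula Foxh1 summit at all. In total 10 of the 124 peaks were on such scaffolds. Another Smad2/3 summit lay within 10 kb at 70 of 221 peaks with Foxh1 at both stages (31.7%, 25.9 to 38.1%), at 30 of 133 with stage 9 only (22.6%, 16.3 to 30.4%) and at 11 of 124 with neither (8.87%, 5.03 to 15.2%). The class with neither also lay less often on the 10 scaffolds with most Smad2/3 peaks, at 83.1% against 92.8% for both and 89.5% for stage 9 only. The part of scaffold length in the share with a neighbour was not tested.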

How the data were processed

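Peak lists of Foxh1 (stages 9 and 8), Foxa, Tle, gastrula Foxh1 and gastrula Smad2/3 were used as the authors deposited them. The other 7 of the 11 samples, RNA polymerase II and input, were not analysed here. The submitters' processing notes list MACS2 2.0.10, HOMER 4.7, Bowtie 1.0.0 and SAMtools without saying what each did. For the genome build, the thresholds and the controls of the peak calls, the sources used here give nothing. Lists of Foxh1 and Smad2/3 have 10 columns and no header. Following the layout of MACS2 narrow peaks, an assumption that no source used here states, the deposited column 7 was read as fold enrichment, the deposited column 8 as −log10 p and the last as the summit. Their deposited score equals the −log10 p multiplied by 10 and rounded down, and the Foxa list is ranked by the authors' score. For Foxa and Tle, the middle of the peak served as its summit. Folds, scores and −log10 p are the authors' values per peak, and they were used to rank or split peaks within a list.

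An overlap of 1 base or more made peaks shared. Lists of unequal length were compared by taking the same number of peaks of highest fold. Shares have Wilson 95% intervals, and areas under the curve have intervals by the formula of Hanley and McNeil. Both cover the counting of peaks and treat peaks as independent. The reads behind the lists are not known, so depth sets no limit that could be stated. Peaks named in the text are the 3 of highest fold per class of Smad2/3 peaks (all of a class of 5 or fewer), and the 3 of highest fold per blastula Foxh1 list with and without Smad2/3. The nearest-gene part of that rule was not applied, since no annotation of the lists' build was given. The regions, classes and lists were chosen with earlier results of these data known. Alternatives were summits within 100 bases, an overlap of 50% of both peaks, equal, shorter or whole lists, the upper 50% of a list, column 8 in place of column 7, and the 10 scaffolds with most Smad2/3 peaks. The calculations were tested on simulated data and run with matplotlib 3.10.9, scipy 1.17.1, pandas 2.3.3 and numpy 2.4.6 under Python 3.11.15.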

Additional observations from a re-analysis of the deposited data

How the results depend on the processing

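No paired analysis was possible because there is 1 pooled list per factor and stage, and for the same reason no replicate could be left out. Over 86 values recomputed under other settings, the area of Foxh1 strength, by fold or by −log10 p, stayed above 0.5 in 16 of 16. Among these the stage 8 value over the whole list repeats the main one, 0.711. The shares of Smad2/3 peaks with Foxh1 at stage 9, stage 8, both and neither became 65.0, 41.2, 39.0 and 32.7% with summits within 100 bases, 51.5, 36.5, 25.4 and 37.5% where at least 50% of each peak had to overlap, and 61.0, 36.5, 36.0 and 38.5% with the upper 50% of each Foxh1 list. The area of Smad2/3 strength, either stage over neither, was 0.587 with the 50% overlap, 0.634 with −log10 p in place of fold, and 0.496, on the other side of 0.5, with the upper 50% of each Foxh1 list. Median Smad2/3 folds of 9.03 for stage 9 only and 9.27 for neither changed order to 9.51 and 8.94 with the 50% overlap. Among the 1000 highest Foxh1 peaks, those with Smad2/3 were 3.50% at stage 9 and 2.40% at stage 8 with the 50% overlap, and 3.10% and 2.20% with the upper 50% of the Smad2/3 list. Ranking Foxh1 peaks by −log10 p gave 10.1% and an area of 0.800 at stage 9. Over the 10000 highest Foxh1 peaks the areas were 0.685 at stage 9 and 0.641 at stage 8, and over the 5000 highest 0.604 and 0.596. Shorter lists, where stage 8 had the higher area, are given with the ranking. In 2 alternatives chosen after seeing the data, fold was examined within sets of equal peak width (given with the ranking), and both Foxh1 lists were restricted to the same −log10 p minimum. That minimum left 24433 stage 9 peaks, a stage 9 share of 71.2% and 28.3% with neither. Lists alone cannot tell a region without Foxh1 from one just under the authors' threshold.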

Other observations

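The shares varied between scaffolds. The 10 scaffolds with most Smad2/3 peaks held 429 of the 480 (89.4%), and over these the share of Smad2/3 peaks with Foxh1 ran between 64.6% (scaffold 4) and 85.4% (scaffold 5) at stage 9, and between 41.3% (scaffold 7) and 54.9% (scaffold 1) at stage 8. In each of the 10 the stage 9 share was the higher. Over them it was 75.5% at stage 9 and 48.3% at stage 8, and on all other scaffolds, with 51 Smad2/3 peaks, 58.8% (45.2 to 71.2%) and 31.4% (20.3 to 45.0%).

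The values of the Smad2/3 list are coarse: 151 of the 480 peaks have the same fold and −log10 p as another peak. The 3 Smad2/3 peaks of lowest fold were all without blastula Foxh1, and 2 of them share a fold of 3.09 and a −log10 p of 45.7, the peak on scaffold 2 starting at 109851591 and the other on scaffold 6 at 82848683. These peaks were chosen for mention after their values were seen.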
